A study of Oryza sativa Japonica Group with 29 samples.

Results

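The loci described here are 150 rice loci whose RNA was already raised in watered roots that over-express OsNMCP1 and that were also raised by drought in wild type roots. They were chosen from these data by group means of log2(TPM + 1), where TPM is the abundance of a transcript relative to all transcripts of a library, corrected for length. A locus had to be at least 0.7 higher in OE normal than in WT normal and at least 1 higher in WT drought than in WT normal, with both OE normal libraries above all 3 WT normal ones. Of 55986 listed loci, 23699 reached at least 1 TPM in at least 2 libraries and were tested, and 788 of these met the rule. The 150 with the highest difference between OE normal and WT normal were taken, and all 150 passed the filter on low values.

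RNA sequencing was done on roots of 25-day-old hydroponic seedlings of Oryza sativa Japonica Group. The groups were OE drought with 3 libraries, WT drought with 3, OE normal with 2 and WT normal with 3. OE stands for plants that over-express OsNMCP1, a plant relative in role of the animal lamins under the nuclear envelope, and WT for the parent cultivar ZH11, and the sources used here do not give the promoter of the transgene or the number of transgenic lines. Drought meant 3 h without water, and normal plants kept their water supply. The drought libraries carry the label genomic DNA, but their titles name RNA sequencing and were followed here. The replicates are called biological, with nothing on separate cultures, so the p-values measure only the spread between these samples.

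Rice roots that lose water raise abscisic acid and jasmonate and send calcium signals, and each of these leads to fast changes in transcription. Jasmonate causes the breakdown of JAZ proteins, repressors that hold back jasmonate-responsive transcription factors, and JAZ genes are themselves induced by the hormone. DREB1 proteins are AP2/ERF transcription factors best known from cold and dehydration responses. Calmodulin-like proteins bind calcium and are thought to pass its signal on to other proteins.

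OsNMCP1 itself (LOC_Os01g56140) had 452, 424 and 347 TPM in OE drought, against 37.4, 28.1 and 46.4 TPM in WT drought. It had 184 and 167 TPM in OE normal, against 35.5, 37.6 and 36.3 TPM in WT normal, so the level followed the genotype labels in all 11 libraries. The implied depth ran from 5.79 to 11.95 gigabases per library, and 20110 to 21812 loci reached 1 TPM. WT drought 3 stood apart within its group. Over all tested loci its log2 values correlated at 0.927 with WT drought 1 and 0.944 with WT drought 2, and at 0.921 to 0.929 with the 3 OE drought libraries, while WT drought 1 and WT drought 2 correlated at 0.982 with each other. Limma results against WT drought for named loci, for the members as a whole and for gene lists are therefore given with and without that library. The values that chose the members, the shares built from them and the counts of overlapping groups are given with it only. OsNMCP1 itself was higher in OE drought than in WT drought by 3.44 with it and by 3.6 without it (limma adjusted p 0.00184 and 0.00209). Summed over LSI1, LSI2, SHR1 and SCR1, genes of root silicon transport and root patterning, the level was 93.8 to 254 TPM in OE drought and 547 to 613 TPM in WT drought, and 1726 to 1888 TPM in OE normal and 1913 to 1960 TPM in WT normal. Summed over the shoot genes CAB1R, CAB2R and RBCS it was 43.6 to 186 TPM in OE drought and 317 to 592 TPM in WT drought, and 328 to 330 TPM in OE normal and 799 to 1115 TPM in WT normal. No gene of either list was at 0 in any library. Both sums thus moved with drought and with genotype, and their part in the results below was not tested. LSI1 and LSI2 made up nearly all of the root sum. In watered roots OE normal minus WT normal was -0.21 (LSI1), 0.05 (LSI2), -0.23 (SHR1) and -0.08 (SCR1). The phosphate transporter PT2, planned as a root gene, was left out of the sum. It differed in OE drought by 0.39 from WT drought (0.01 without WT drought 3) and by 0.26 from OE normal, and limma called neither. In such bulk samples, fewer cells of a type and less RNA per cell cannot be told apart.

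The values that chose the members are given as a description. OE normal minus WT normal had a median of 1.87 among the 150 members and ran from 1.58 to 4.67 on the log2(TPM + 1) scale. WT drought minus WT normal had a median of 3.66 and ran from 1.02 to 7.69. The first difference was 54.4% of the second in the median member, under 50% in 67 members, 50% to 100% in 64 and over 100% in 19. These shares include WT drought 3, the lowest of its group in 121 members, and are not given without it. Among all tested loci, 5.02% were at least 0.7 higher in OE normal than in WT normal and 13.2% were at least 1 higher in WT drought than in WT normal. The members' mean TPM had a median of 99.9 in OE drought, 139 in WT drought, 28.9 in OE normal and 6.25 in WT normal. The watered OE level thus stayed under the wild type drought level in most members. In 89 members both OE normal libraries lay below all 3 WT drought ones, in 54 they overlapped, and in 7 they lay above. Among all tested loci these non-overlapping shares were 21.1% below and 51.3% above, and since the rule used both groups nothing is read from the counts.

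The end of the list has no gap. The last 2 members, LOC_Os09g23620 and LOC_Os11g44300, had an OE normal minus WT normal difference of 1.59 and 1.58, and the first 2 loci beyond rank 150, LOC_Os08g07660 and LOC_Os12g03370, had 1.58 and 1.58. The members closest to the drought minimum were LOC_Os11g44300 at 1.02 and LOC_Os08g05980 at 1.19, and loci with a like OE difference just under it were LOC_Os11g44380 at 0.82 and LOC_Os06g07250 at 0.76. Of the 16 members that carry an accepted gene name, 12 fall into 3 families of 4, which are the JAZ repressors TIFY11A, TIFY11B, TIFY11C and TIFY11D, the DREB1 factors DREB1B, DREB1C, DREB1E and DREB1H, and the calmodulin-like proteins CML15, CML16, CML21 and CML31. The other named members are CHT8, PP2C32, SAP17 and VIT2. These families depend on which names were written and accepted, and do not give the make-up of the 150 members. The remaining members have no accepted name and are given by identifier. For 16 of them a name was written and not accepted, among them 3 written as AP2/ERF factors and 3 as C2H2 zinc fingers. For the others no name was written, so whether they have a symbol was not checked.

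**Figure D1:**
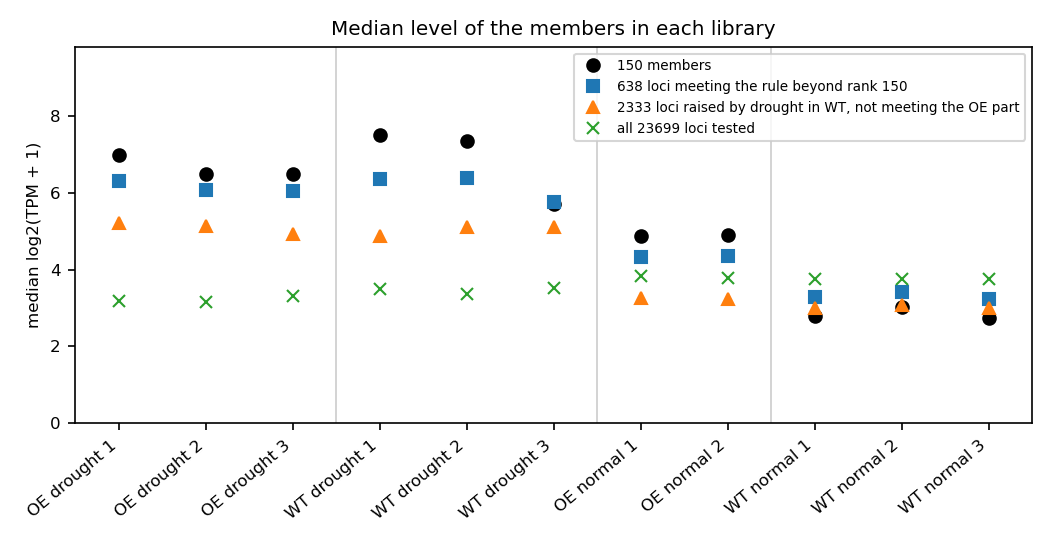
Median log2(TPM + 1) in each of the 11 libraries, for the 150 members, the 638 loci that met the rule beyond rank 150, the 2333 loci that met only the drought condition of the rule, and all 23699 tested loci. The members' median is 6.49 to 7.0 in OE drought, 5.72 to 7.5 in WT drought with WT drought 3 lowest, 4.89 to 4.90 in OE normal and 2.74 to 3.02 in WT normal.

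After drought most members could not be told apart between the genotypes when all 6 drought libraries were used, which does not show that their levels were alike. OE drought and WT drought overlapped in 119 of the 150 members, and 133 did not pass the test. All OE drought libraries lay above all WT drought ones in 20 members, beside 12.4% of all tested loci, and below them in 11, beside 27.7%. The test was limma on log2(TPM + 1) over the 6 drought libraries, two-sided, with Benjamini-Hochberg adjustment over all tested loci and a threshold of 0.05, here and below. Of the members, 10 (6.67%) were higher in OE drought and 7 (4.67%) lower, beside 5.24% higher and 9.38% lower, or 14.6% called in all, among all tested loci. Both shares are near or under the background. The median difference of OE drought minus WT drought was -0.34 among members, -0.22 among the loci that met the rule beyond rank 150, -0.01 among those that met only its drought condition, and -0.20 among all tested loci. The WT drought libraries had helped to choose the members, and taking loci that are high in them pulls this difference down. Scaling TPM by median ratios moved the median of all tested loci to -0.05 and the members' median to -0.14, with 10 members higher and 6 lower. Under that scaling 1591 loci were higher and 1288 lower, against 1242 higher and 2222 lower with TPM as deposited.

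The comparison changed when WT drought 3 was left out. Without it, 14 members were higher in OE drought and 68 lower, or 45.3% lower, beside 10.5% higher and 15.7% lower, or 26.1% called in all, among all tested loci, and the members' median difference was -0.94. All 10 members called higher and all 7 called lower with the full set were among them. The rule took loci high in WT drought, and leaving out a library that is low in most members pulls their difference further down. The share of 45.3% is therefore not read against that of all tested loci. The same count was not made for loci that met only the drought condition. Without WT drought 1 the members' median was 0.04, with 5 higher and 2 lower, and without WT drought 2 it was -0.05, with 2 higher and 2 lower. Leaving out OE drought 2 left 3 higher and 2 lower, and leaving out OE drought 1 left 5 higher and 5 lower. Only 4 of the 17 calls held in every fit that left out 1 library, namely LOC_Os01g35330 and LOC_Os07g03040 on the higher side and VIT2 and LOC_Os06g19370 on the lower side.

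The members' dependence on this library is seen locus by locus. WT drought 3 was the lowest of its group in 121 of 150 members, or 80.7%, against 35.5% of all tested loci, and the highest in 18. Of the 10 members called higher in OE drought, 7 had WT drought 3 as the highest WT drought library, and of the 7 called lower, none did. OE drought 1 was the highest of its group in 116 members, or 77.3%, against 31.1% of all tested loci, and WT normal 2 the highest of its group in 118, or 78.7%, against 40.8%. The SD within the group had a median over members of 0.40 in OE drought, 1.07 in WT drought, 0.06 in OE normal and 0.22 in WT normal, against 0.25, 0.27, 0.08 and 0.07 in the same groups over all tested loci, on the log2(TPM + 1) scale.

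**Figure D2:**
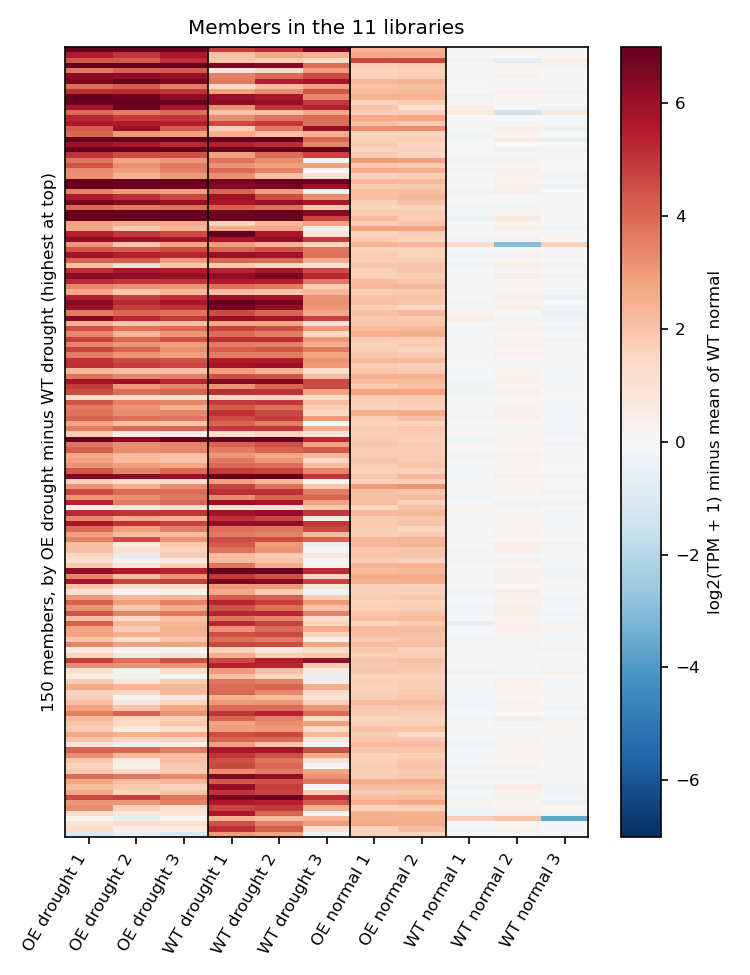
Each member (rows) in each of the 11 libraries (columns), as log2(TPM + 1) minus the member's mean in WT normal, with rows ordered by OE drought minus WT drought. OE normal is above WT normal in each row by the rule, and WT drought 3 is paler than WT drought 1 and WT drought 2 in most rows, being the lowest of its group in 121 members.

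**Figure D3:**
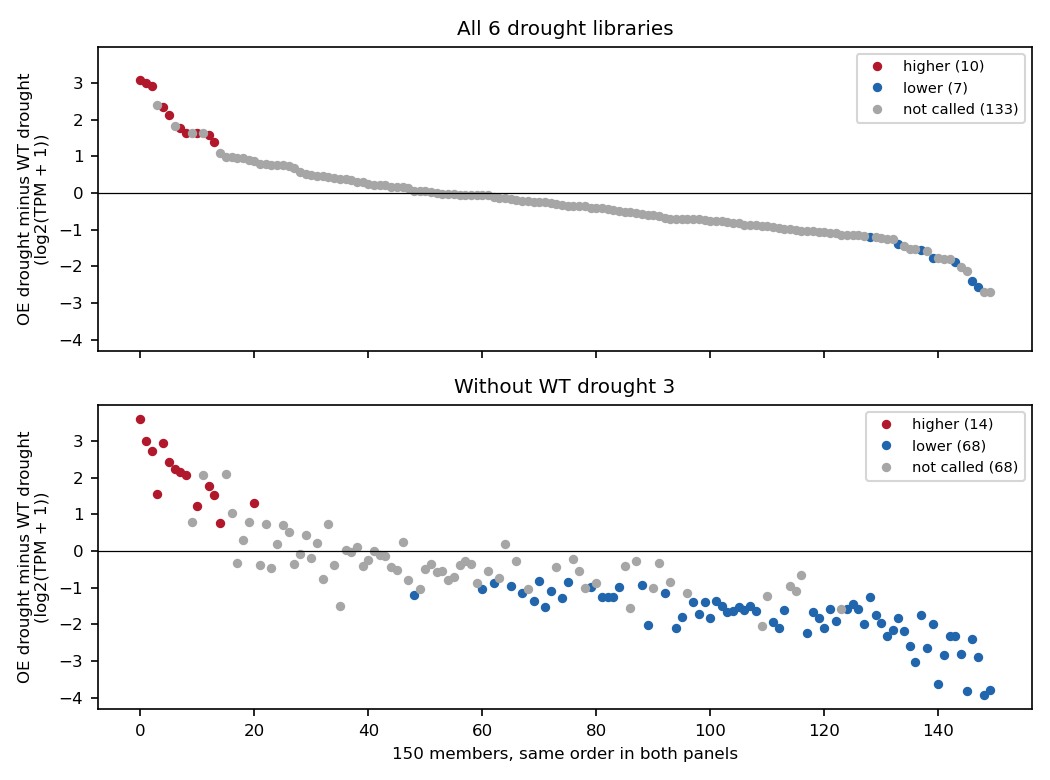
OE drought minus WT drought on the log2(TPM + 1) scale for the 150 members, ranked by the value from all 6 drought libraries (top) and in the same order without WT drought 3 (bottom). Colours give the limma call, with 10 higher and 7 lower in the top panel and 14 higher and 68 lower in the bottom panel.

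Within OE roots most members rose further with drought. Of the 150 members, 94 (62.7%) were higher in OE drought than in OE normal and 14 (9.33%) lower, beside 19.5% higher and 49.0% lower among all tested loci, by limma over the 5 OE libraries. All 3 OE drought libraries lay above both OE normal ones in 102 members, against 24.4% of all tested loci, and below them in 23, against 58.4%. The median difference was 1.33 among members and -0.56 among all tested loci. It was 1.53 among the loci that met only the drought condition of the rule, of which 82.0% were higher and 0.9% lower, and 1.42 among those that met the whole rule beyond rank 150, of which 68.7% were higher and 4.23% lower. The OE normal libraries had helped to choose the members, and taking loci that are high in them pulls this difference down. With median-ratio scaling the median of all tested loci was -0.11, that of the members 1.87, and 104 members were higher and 7 lower. Under that scaling 6667 loci were higher and 7244 lower, against 4616 higher and 11601 lower with TPM as deposited. Of the 108 members called, 82 were called in every fit that left out 1 of the 5 libraries.

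**Figure D4:**
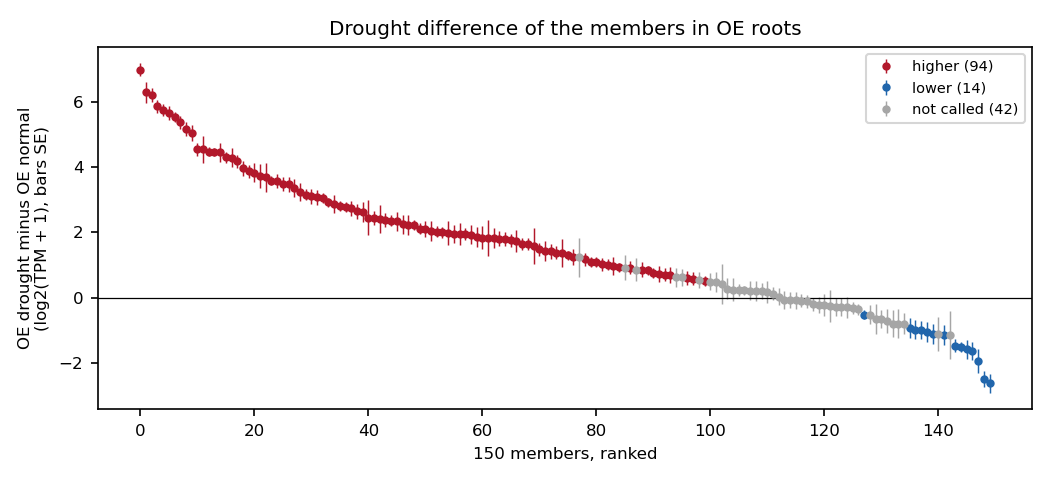
OE drought minus OE normal on the log2(TPM + 1) scale for the 150 members, ranked, with the SE from limma as bars. Points above 0 dominate, with 94 called higher, 14 called lower and 42 not called.

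The extremes of this step are mostly loci without an accepted name. LOC_Os02g52670 had 954, 1162 and 780 TPM in OE drought, 404, 752 and 440 TPM in WT drought, 6.35 and 6.68 TPM in OE normal, and 1.47, 0.974 and 2.17 TPM in WT normal. It had the highest OE drought minus OE normal value of the members, at 6.99 (SE 0.19, limma adjusted p 3.39e-05). LOC_Os07g05940 had 790, 454 and 363 TPM in OE drought, 184, 161 and 28.3 TPM in WT drought, 5.19 and 5.74 TPM in OE normal, and 1.05, 1.26 and 0.670 TPM in WT normal. Its step in OE was 6.30 (SE 0.33, limma adjusted p 9.3e-05), and its 3 OE drought libraries lay above all WT drought ones without a call (2.41, SE 0.71, limma adjusted p 0.0637), and with one without WT drought 3 (1.55, limma adjusted p 0.0250).

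At the other end, LOC_Os06g19370 had the lowest value, -2.62, and is described further below. LOC_Os10g36360 had 1.86, 3.2 and 1.87 TPM in OE drought, 47.3, 40.3 and 3.89 TPM in WT drought, 18.0 and 16.7 TPM in OE normal, and 5.2, 5.99 and 4.25 TPM in WT normal. OE drought was the lowest group here, below even WT normal, and differed from OE normal by -2.50 (SE 0.24, limma adjusted p 0.000505). Against WT drought it had the lowest difference of the members, at -2.715 and not called, and at -3.78 without WT drought 3. The rule took it for being high in both groups, which pulls both differences down. LOC_Os06g41600 had 20.6, 8.10 and 15.3 TPM in OE drought, 89.7, 46.9 and 9.22 TPM in WT drought, 56.6 and 54.1 TPM in OE normal, and 8.75, 14.1 and 12.3 TPM in WT normal. It fell by 1.93 (SE 0.36, limma adjusted p 0.0048) against OE normal, to a level that overlapped WT normal.

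All 4 JAZ repressors were higher in OE drought than in OE normal, by differing amounts, and none was called between the genotypes after drought with all libraries. TIFY11C (LOC_Os03g08320) had 1015, 1086 and 857 TPM in OE drought, 669, 1065 and 495 TPM in WT drought, 20.2 and 19.8 TPM in OE normal, and 4.17, 6.02 and 4.83 TPM in WT normal. TIFY11D (LOC_Os10g25290) had 623, 573 and 513 TPM in OE drought, 548, 721 and 297 TPM in WT drought, 23.8 and 25.6 TPM in OE normal, and 6.02, 9.04 and 5.44 TPM in WT normal. For both genes the drought libraries of the genotypes overlapped, and both OE normal libraries lay between the WT normal and the drought ones. OE drought exceeded OE normal by 5.55 (SE 0.15) for TIFY11C and by 4.47 (SE 0.14) for TIFY11D on the log2(TPM + 1) scale, with limma adjusted p of 3.39e-05 and 3.44e-05.

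TIFY11B (LOC_Os03g08330) had 1257, 959 and 911 TPM in OE drought, 1398, 1329 and 328 TPM in WT drought, 73.3 and 66.0 TPM in OE normal, and 18.8, 26.3 and 19.6 TPM in WT normal. TIFY11A (LOC_Os03g08310) had 259, 224 and 187 TPM in OE drought, 522, 537 and 90.6 TPM in WT drought, 9.68 and 13.0 TPM in OE normal, and 1.62, 2.60 and 1.38 TPM in WT normal. In both genes WT drought 3 was the low library of its group and made the groups overlap. They were higher in OE drought than in OE normal by 3.87 (SE 0.19) and 4.19 (SE 0.20), with limma adjusted p of 8.03e-05 and 7.37e-05. Between OE drought and WT drought none of the 4 was called, with differences of -0.41 (TIFY11A), 0.28 (TIFY11B), 0.47 (TIFY11C) and 0.21 (TIFY11D) and SE of 0.67, 0.57, 0.32 and 0.34. Without WT drought 3, TIFY11A was lower in OE drought by -1.25 with a limma adjusted p of 0.0100, and the other 3 were not called, at -0.40 (TIFY11B), 0.22 (TIFY11C) and -0.15 (TIFY11D). How reads were shared between such similar genes is not given in the sources used here.

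The 4 DREB1 factors did not move alike. DREB1C (LOC_Os06g03670) had 347, 229 and 256 TPM in OE drought, 366, 323 and 22.7 TPM in WT drought, 3.62 and 3.73 TPM in OE normal, and 0.365, 1.11 and 0.0491 TPM in WT normal. It was higher in OE drought than in OE normal by 5.87 (SE 0.20, limma adjusted p 3.78e-05), and WT drought 3 alone stood below the OE drought libraries. DREB1H (LOC_Os09g35020) had 8.87, 5.92 and 6.60 TPM in OE drought, 201, 63.3 and 2.37 TPM in WT drought, 21.4 and 21.3 TPM in OE normal, and 2.32, 4.53 and 2.56 TPM in WT normal. DREB1E (LOC_Os04g48350) had 5.57, 2.92 and 2.93 TPM in OE drought, 98.9, 49.7 and 4.44 TPM in WT drought, 7.77 and 11.3 TPM in OE normal, and 1.46, 2.46 and 1.51 TPM in WT normal. For both, all OE drought libraries were below both OE normal ones, which the rule favours by taking loci high in OE normal. The difference was -1.48 (SE 0.20, limma adjusted p 0.00166) for DREB1H and -1.15 (SE 0.31, limma adjusted p 0.0178) for DREB1E, with each sign kept under median-ratio scaling. A shared spread over 11 libraries ended both calls, and that of DREB1E was also lost under median-ratio scaling, with no filter on low values and without OE drought 2 or either OE normal library.

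DREB1B (LOC_Os09g35010), next to DREB1H on chromosome 9, had 27.3, 23.0 and 19.6 TPM in OE drought, 467, 189 and 5.30 TPM in WT drought, 30.2 and 29.5 TPM in OE normal, and 4.23, 9.26 and 4.52 TPM in WT normal. Its OE drought level was a little below its OE normal level, at -0.35 (SE 0.17, limma adjusted p 0.114), and the sign turned to 0.18 under median-ratio scaling. WT drought 1 and WT drought 2 were far above, and WT drought 3 below, every OE drought library for DREB1B and DREB1H. Against WT drought, OE drought differed by -1.77 (SE 1.45) for DREB1B, -2.13 (SE 1.35) for DREB1H, -2.70 (SE 1.00) for DREB1E and 0.96 (SE 1.00) for DREB1C, with limma adjusted p of 0.413, 0.297, 0.106 and 0.524. Without WT drought 3 the first 3 of these differences were -3.63, -3.82 and -3.93, with limma adjusted p of 0.00443, 0.00608 and 0.00375, and DREB1C was at -0.33 and not called.

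The 4 calmodulin-like genes were all higher in OE drought than in OE normal, and none was called between the genotypes after drought with all libraries. CML16 (LOC_Os01g04330) had 1112, 1070 and 1062 TPM in OE drought, 566, 702 and 329 TPM in WT drought, 94.4 and 84.9 TPM in OE normal, and 20.8, 24.9 and 20.9 TPM in WT normal. Its 3 OE drought libraries lay above all WT drought ones, with a difference of 1.09 (SE 0.31, limma adjusted p 0.0594), and of 0.78 without WT drought 3 (limma adjusted p 0.0452). CML31 (LOC_Os01g72530) had 842, 537 and 595 TPM in OE drought, 1011, 878 and 318 TPM in WT drought, 176 and 191 TPM in OE normal, and 35.0, 46.3 and 32.0 TPM in WT normal. CML15 (LOC_Os05g31620) had 604, 430 and 375 TPM in OE drought, 833, 840 and 159 TPM in WT drought, 84.7 and 82.5 TPM in OE normal, and 17.1, 17.9 and 15.7 TPM in WT normal. In both, OE drought lay between the low WT drought 3 and the other WT drought libraries. Their OE drought minus WT drought differences were -0.06 (SE 0.65) for CML15 and -0.02 (SE 0.46) for CML31, against -0.86 and -0.54 without WT drought 3, not called in either case, and both signs turned under median-ratio scaling with all libraries. CML21 (LOC_Os05g24780) had 323, 231 and 210 TPM in OE drought, 69.8, 146 and 253 TPM in WT drought, 31.8 and 26.2 TPM in OE normal, and 9.03, 8.82 and 8.29 TPM in WT normal. Its OE drought minus WT drought difference was 0.86 (SE 0.45, limma adjusted p 0.219). Here WT drought 3 was the highest of its group, and without it OE drought was higher by 1.3 (limma adjusted p 0.0430). The step over OE normal was 3.58 (SE 0.14) for CML16, 3.07 (SE 0.22) for CML21, 2.45 (SE 0.22) for CML15 and 1.81 (SE 0.22) for CML31, with limma adjusted p of 4.48e-05, 0.000208, 0.00044 and 0.00115.

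**Figure D5:**
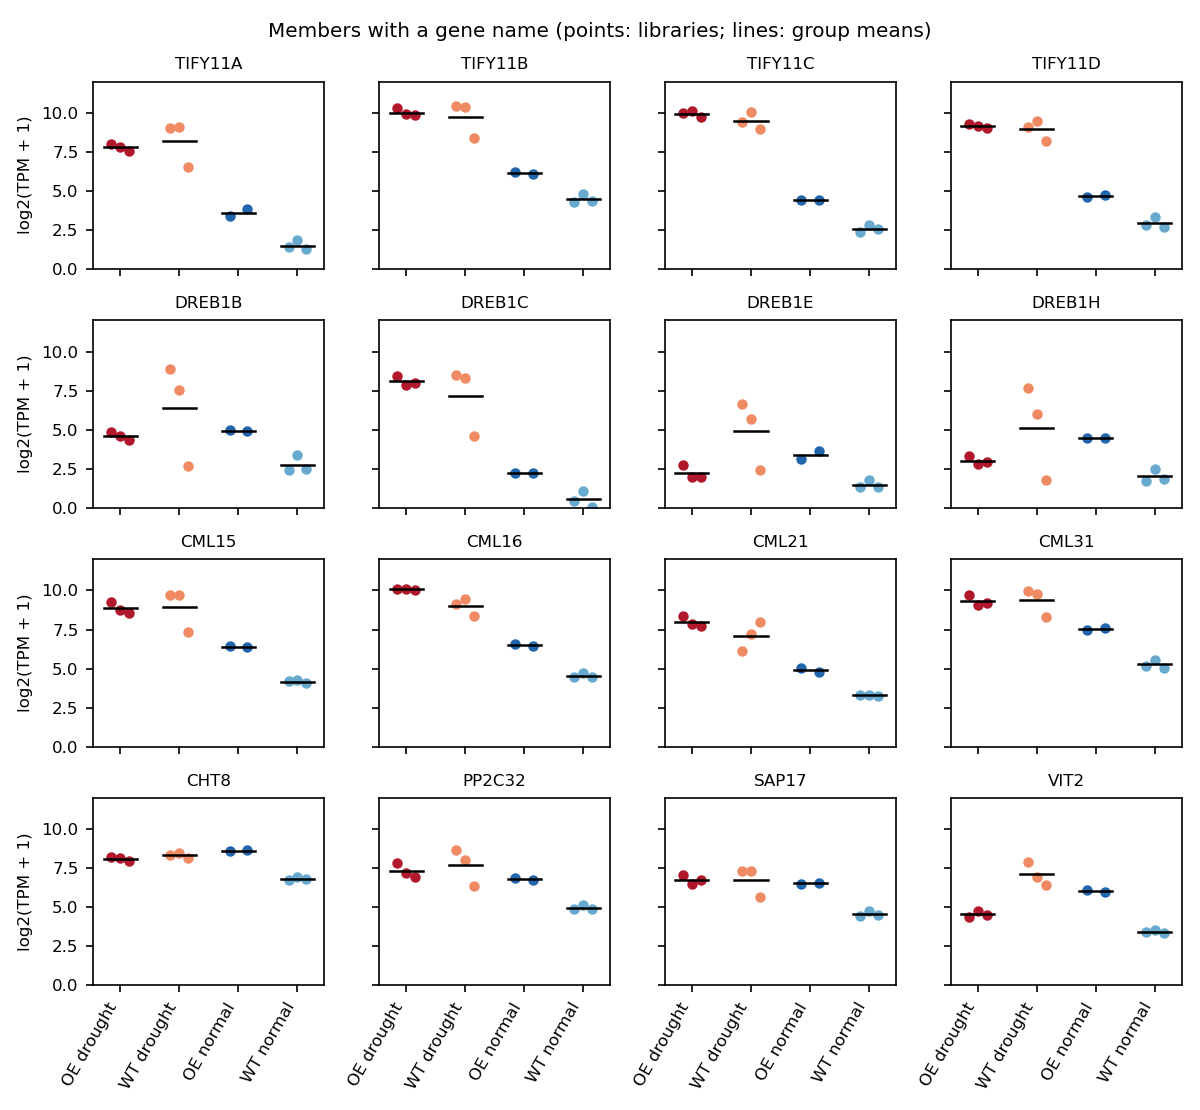
The 16 members with a gene name, as log2(TPM + 1) per library (points) and group mean (lines), in OE drought, WT drought, OE normal and WT normal. TIFY11A to TIFY11D, DREB1C and the 4 CML genes are well above OE normal in OE drought, while VIT2, CHT8, DREB1E and DREB1H are below it.

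VIT2 (LOC_Os09g23300), a vacuolar iron transporter gene, was lower in OE drought than in either WT drought or OE normal. It had 20.2, 26.0 and 21.7 TPM in OE drought, 240, 124 and 86.9 TPM in WT drought, 68.5 and 62.9 TPM in OE normal, and 9.87, 10.9 and 9.25 TPM in WT normal. The groups did not overlap, and WT normal was the lowest. OE drought differed by -2.55 (SE 0.36, limma adjusted p 0.0103) from WT drought and by -1.50 (SE 0.16, limma adjusted p 0.00064) from OE normal. Without WT drought 3 the first value was -2.88 (limma adjusted p 0.00418). The rule took VIT2 for being high in WT drought and in OE normal, which pulls both differences down.

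CHT8 (LOC_Os10g39680), a chitinase gene, was the named member with the narrowest spread across groups. It had 297, 292 and 249 TPM in OE drought, 324, 353 and 286 TPM in WT drought, 393 and 404 TPM in OE normal, and 109, 121 and 110 TPM in WT normal. The highest values were those of watered OE roots, above all 3 WT drought libraries. OE drought was at -0.52 (SE 0.15, limma adjusted p 0.0214) against OE normal, a difference that turned to 0.03 under median-ratio scaling and was not called without either OE normal library. It was at -0.20 (SE 0.18, limma adjusted p 0.459) against WT drought, and at -0.28 (limma adjusted p 0.258) without WT drought 3.

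PP2C32 (LOC_Os03g18150), a type 2C protein phosphatase gene, had 224, 144 and 123 TPM in OE drought, 403, 256 and 83.0 TPM in WT drought, 118 and 107 TPM in OE normal, and 28.4, 34.2 and 28.3 TPM in WT normal. SAP17 (LOC_Os09g21710), a gene of the stress-associated zinc finger family, had 133, 89.9 and 105 TPM in OE drought, 157, 162 and 49.0 TPM in WT drought, 91.4 and 92.9 TPM in OE normal, and 21.3, 26.5 and 22.2 TPM in WT normal. Neither gene was called in either comparison. OE drought minus OE normal was 0.49 (SE 0.26, limma adjusted p 0.142) for PP2C32 and 0.22 (SE 0.19, limma adjusted p 0.316) for SAP17. Against WT drought the differences were -0.37 (SE 0.57) and 0.00 (SE 0.46), and without WT drought 3 they were -1.01 and -0.56 (limma adjusted p 0.0649 and 0.0840).

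None of the members called higher in OE drought than in WT drought has an accepted name. LOC_Os01g42860 (chromosome 1) had 2034, 2782 and 1835 TPM in OE drought, 157, 204 and 528 TPM in WT drought, 28.3 and 28.7 TPM in OE normal, and 3.88, 5.54 and 4.11 TPM in WT normal. Each of these groups lay above the one named after it, with no overlap, and OE drought was 3.08 (SE 0.47, limma adjusted p 0.0121) higher than WT drought, and 3.6 without WT drought 3. LOC_Os07g03040 (chromosome 7) had 127, 84.1 and 131 TPM in OE drought, 10.1, 16.7 and 13.8 TPM in WT drought, 16.4 and 15.5 TPM in OE normal, and 1.78, 1.65 and 1.63 TPM in WT normal. Its WT drought libraries were close to OE normal, and the difference of OE drought minus WT drought was 2.98 (SE 0.26, limma adjusted p 0.00287), and 3.01 without WT drought 3.

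LOC_Os01g35330, the member with the highest OE normal minus WT normal value, had 75.8, 70.5 and 133 TPM in OE drought, 13.1, 12.3 and 8.17 TPM in WT drought, 93.2 and 93.8 TPM in OE normal, and 3.61, 1.23 and 3.94 TPM in WT normal. Both conditions in OE were above both in WT, with no overlap. OE drought minus WT drought was 2.91 (SE 0.30, limma adjusted p 0.00487), and 2.72 without WT drought 3. OE drought minus OE normal was -0.07 (SE 0.29, limma adjusted p 0.845), a value that was 0.48 under median-ratio scaling.

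LOC_Os02g41840 had 524, 494 and 445 TPM in OE drought, 76.7, 105 and 168 TPM in WT drought, 20.2 and 21.9 TPM in OE normal, and 5.23, 7.12 and 5.18 TPM in WT normal. LOC_Os07g44440 had 1058, 1433 and 1592 TPM in OE drought, 140, 210 and 629 TPM in WT drought, 251 and 263 TPM in OE normal, and 76.4, 89.1 and 79.3 TPM in WT normal. In both, as in LOC_Os01g42860, WT drought 3 was the WT drought library closest to OE drought. Their OE drought minus WT drought differences were 2.13 (SE 0.29, limma adjusted p 0.00987) and 2.34 (SE 0.54, limma adjusted p 0.0364), and 2.42 and 2.96 without WT drought 3. The other members called higher were LOC_Os05g09440, LOC_Os01g41240, LOC_Os03g60560, LOC_Os05g08420 and LOC_Os06g09980, with differences of 1.76, 1.64, 1.63, 1.58 and 1.38, and of 2.14, 2.06, 1.23, 1.78 and 1.52 without WT drought 3. Of the 10, 9 were also higher in OE drought than in OE normal, and LOC_Os01g35330 was not.

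Besides VIT2, the members called lower in OE drought than in WT drought were also without an accepted name. The rule took them for being high in WT drought, which pulls their differences from it down. LOC_Os06g19370 had 13.6, 7.13 and 13.6 TPM in OE drought, 67.3, 57.1 and 63.7 TPM in WT drought, and 72.3 and 73.6 TPM in OE normal. In WT normal it had 40.8, 46.8 and 0.00187 TPM, and it no longer met the rule without WT normal 3. Its difference from WT drought was -2.40 (SE 0.26, limma adjusted p 0.00566), or -2.39 without WT drought 3, and from OE normal -2.62 (SE 0.29, limma adjusted p 0.000797), and neither was called with a shared spread over 11 libraries. LOC_Os12g08130 had 223, 209 and 156 TPM in OE drought, 639, 734 and 290 TPM in WT drought, 48.9 and 49.7 TPM in OE normal, and 11.2, 13.8 and 10.7 TPM in WT normal. It differed from WT drought by -1.41 (SE 0.37, limma adjusted p 0.0495), or by -1.82 without WT drought 3, and was higher than OE normal by 1.95 (SE 0.18, limma adjusted p 0.000482). The remaining differences from WT drought were -1.90 for LOC_Os07g34690, -1.76 for LOC_Os01g03130, -1.55 for LOC_Os01g67030 and -1.20 for LOC_Os01g67010, and without WT drought 3 they were -2.31, -1.99, -1.75 and -1.25, with the loci in that order. LOC_Os01g67010 and LOC_Os01g67030 lie within 10.4 kb of each other on the same strand of chromosome 1, and neither was called against OE normal.

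Some members owe their place to a single WT normal library. LOC_Os03g04370 had 42.7 and 39.6 TPM in OE normal, against 21.2 and 25.2 TPM in WT normal 1 and 3, was listed at 0 in WT normal 2, and did not meet the rule without WT normal 2. LOC_Os05g08420 had 274 and 273 TPM in OE normal against 133, 30.4 and 141 TPM in WT normal. It met the rule without WT normal 2 as well. Against WT normal 1 and 3 alone its OE difference is under the 1.58 of the last member, so its place among the first 150 rests on WT normal 2. Of all members, 131 had WT normal libraries within 2-fold of each other, and 132 had OE normal libraries within 1.2-fold of each other. Leaving out 1 library at a time from the groups of the rule, 146 to 150 of the members met it again. The members' OE differences of at least 1.58 lie well above the minimum of 0.7, which favours this. Within the first 150 loci, 136 to 149 of the members remained, with 136 without OE normal 1.

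The members are short loci, and some lie side by side, which are features the rule did not use. The median span from start to end was 1167 bases among members, 1830 among the loci that met the rule beyond rank 150, 2725 among those that met only its drought condition and 3163 among all tested loci. Another member lay within 2 tested loci of 24 members (16.0%), in 11 clusters, while 2.32% of other tested loci had a member that near. TIFY11A, TIFY11C and TIFY11B form one such cluster on chromosome 3, from 4232001 to 4249985 in the coordinates of the files, whose genome build is not given in the sources used here. DREB1B and DREB1H form another on chromosome 9, from 20395224 to 20400263. LOC_Os02g37290, LOC_Os02g37300 and LOC_Os02g37320 lie together on chromosome 2, from 22550981 to 22559507, and none of them was called in either comparison. Chromosome 1 holds 35 members, or 1.04% of its tested loci, against 0.633% over the genome. The spans of LOC_Os03g20290, LOC_Os01g48446 and LOC_Os01g60640 overlap a locus on the opposite strand, and since it is not stated whether counting used strand, their reads cannot be told from those of the partner.

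Other genes of the same pathways were counted from lists written by symbol, and each count covers only the loci whose name was accepted. Of 172 names written, 78 were not accepted, and 16 of those loci are members that the counts below leave out. The shares of all tested loci to set beside the counts are 5.24% higher and 9.38% lower for OE drought against WT drought (10.5% and 15.7% without WT drought 3), and 19.5% higher and 49.0% lower for OE drought against OE normal. Nothing is called particular to a list.

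Of 13 tested jasmonate genes, 4 were members and 8 met the rule, and the additional 4 were TIFY11E, TIFY10A, TIFY10C and AOS1, an allene oxide synthase gene of jasmonate synthesis. Another 5 written names were not accepted, of which 1 is a member. All 13 were higher in OE drought than in OE normal, with a median difference of 3.87. All 13 were also at least 1 higher in WT drought than in WT normal, and of the loci that met only that condition 82.0% were higher in OE drought than in OE normal. Against WT drought 1 was lower and none higher, namely the JAZ gene TIFY10B with 418, 487 and 399 TPM in OE drought and 794, 932 and 871 TPM in WT drought. Its difference was -0.995 (SE 0.20, limma adjusted p 0.0265), and -0.99 without WT drought 3, where TIFY11A and AOS1 were lower as well.

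Of 9 tested DREB1 and DREB2 genes, 4 were members and 7 met the rule, and of 7 further AP2/ERF names that were not accepted 3 are members. Against OE normal, 5 were higher and 2 lower in OE drought, and against WT drought 1 was higher and 1 lower, or 1 higher and 5 lower without WT drought 3. The lower one was DREB1A, next to DREB1H on chromosome 9, with 28.1, 33.2 and 24.4 TPM in OE drought and 259, 156 and 108 TPM in WT drought. Its difference was -2.49 (SE 0.32, limma adjusted p 0.00852), and -2.78 without WT drought 3, and its drought groups did not overlap with that library included. The higher one was DREB2B, with a difference of 1.25 (SE 0.32, limma adjusted p 0.0460), and of 1.59 without WT drought 3.

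Of 11 tested calcium sensor and kinase genes, 4 were members and 7 met the rule, but CML21 was placed in the list only after it had been recognised among the members. Of the 11 names not accepted none is a member. Against OE normal 8 were higher and 1 lower. None was called by limma against WT drought, where 2 of 11 had an unadjusted p under 0.05, beside 35.3% of all tested loci. Without WT drought 3, CML16 and CML21 were higher.

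Of 9 tested clade A protein phosphatases 2C, the negative regulators of abscisic acid signalling, none was a member and 2 met the rule beyond rank 150 (PP2C30 and PP2C68). In OE drought 6 were higher and none lower than in WT drought, with the same counts without WT drought 3. Of 7 tested LEA and dehydrin genes, whose products protect drying cells, none was a member and 1 met the rule beyond rank 150 (RAB16D). Against WT drought 4 were higher and none lower, or 3 higher and none lower without WT drought 3, and all 7 were higher against OE normal. All names written for these 2 lists were accepted. Of 5 tested genes of abscisic acid synthesis and breakdown with an accepted name none met the rule, but 1 of 3 names not accepted is a member. Of the 5, 2 were higher and none lower than in WT drought, or 3 higher and 1 lower without WT drought 3. One of them is NCED3, which encodes an enzyme of abscisic acid synthesis, with 88.5, 75.4 and 57.7 TPM in OE drought against 10.8, 11.7 and 11.5 TPM in WT drought. Its OE normal libraries had 1.80 and 2.17 TPM, against 0.997, 0.956 and 0.931 TPM in WT normal, and its difference of OE drought minus WT drought was 2.58 with and 2.59 without WT drought 3.

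Of 8 tested diterpenoid phytoalexin genes none met the rule, and 5 were lower and none higher in OE drought than in WT drought, or 4 lower without WT drought 3. Of 4 tested WRKY factors 2 met the rule beyond rank 150, and of 13 names not accepted 1 is a member. All 4 were higher than in OE normal, and none was called by limma against WT drought, where 1 of 4 had an unadjusted p under 0.05, or 1 was lower without WT drought 3. Of 4 tested PR protein genes, all chitinases, 3 met the rule with CHT8 as a member, and of 7 names not accepted 2 are members. Of the 4, 1 was higher and 2 lower against OE normal, and none was called by limma against WT drought, where 1 of 4 had an unadjusted p under 0.05, or 1 was higher without WT drought 3. The NAC list had 12 names written and 9 not accepted, of which 2 are members, while 1 of the 3 tested met the rule. The MYB list had 3 names written and 2 not accepted, of which 1 is a member, and all 7 names of C2H2 zinc fingers were not accepted, of which 3 are members. Of 3 tested phosphate transporters 1 met the rule, and of 2 tested phenylpropanoid genes none did, with no member among the names not accepted.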

How the data were processed

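Tables of 11 root RNA libraries were used, and 18 ATAC-seq samples were not analysed here. Among the tools in the submitters' processing notes are StringTie 1.3.6, SAMtools 1.9, STAR (given as 1.5.2), FastQC 0.11.8 and fastp, without roles. Genome build, annotation and strandedness were not given in the sources used here. TPM as deposited by the authors adds up to 1000000 in a library and was tested as log2(TPM + 1). FPKM and coverage deposited by the authors were used only for the implied depth. Read counts were not used, so no counting interval can be given, and an exact 0 can be a failed estimate.

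Loci that reached 1 TPM or more in 2 or more libraries entered limma 3.58.1 in R 4.3.3 (mean-variance trend, two-sided, Benjamini-Hochberg, threshold 0.05), OE drought against WT drought on 6 libraries and OE drought against OE normal on 5. OE normal against WT normal and WT drought against WT normal chose the members and were not tested. The members and the gene lists were chosen with earlier results of these data known. The fits were checked on simulated data with 100 changed loci for each size of change. These were drawn from the tested loci in general, not from the members. The median SD in WT drought was 0.27 over all tested loci and 1.07 over members, so recovery among members can be lower. Differences of 1 and 2 on the log2 scale were recovered in 19% and 61% by the 6-library fit. The 5-library fit recovered 23% and 65%. These fits made 8 and 2 false calls among 23499 unchanged loci. A shared spread over 11 libraries recovered 69% and 92% in the first comparison and 45% and 81% in the second. It made 294 and 21 false calls. Replicate numbers were not used to pair the libraries, except in the replicate block.

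Loci were named from knowledge and accepted where the RefSeq table (assembly ASM3414082v1) held that symbol, or it as a synonym, at most 5 Mb away on the same chromosome, with a length ratio of 0.9 to 1.1 or, added later, with a shift within 5 kb of that of the nearest accepted name. Of 172 names written, 83 were accepted by length and 11 by shift, and the gene lists hold accepted names only. PP2C32, CML21 and SAP17 were recognised after the members had been set against that table. Values are given for members with a name, the 10 ranked highest by the rule, those with the most extreme OE drought minus WT drought, those at the edges of the rule, OsNMCP1, and families of several members, in part as ranges. LOC_Os02g52670, LOC_Os06g41600, DREB1A, TIFY10B, DREB2B, NCED3, LOC_Os02g41840, LOC_Os12g08130, LOC_Os03g04370 and LOC_Os05g08420 were singled out after their values were seen. Alternatives were another pseudocount, median-ratio scaling, other filters, a shared spread over 11 libraries, no trend, a replicate block and leaving out each library. Joins and plots used pandas 2.3.3, numpy 2.4.6 and matplotlib 3.10.9 under Python 3.11.15.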

Additional observations from a re-analysis of the deposited data

Results flagged for a closer look

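In 14 members every OE drought library lay below both OE normal libraries, while every WT drought library lay above all WT normal ones. The first part alone held in 58.4% of all tested loci. The share of all tested loci with both parts was not computed, so nothing is read from the count. The difference between these 2 drought effects was not tested, since the rule used the groups it is built from. OE drought minus OE normal was -1.50 for VIT2, -1.15 for DREB1E and -0.52 for CHT8 on the log2(TPM + 1) scale, where CHT8 turned to 0.03 under median-ratio scaling. It was -2.62 for LOC_Os06g19370, -1.58 for LOC_Os08g05980, -1.15 for LOC_Os01g25280, -1.11 for LOC_Os10g10030 and -1.04 for LOC_Os01g09870. It was -0.98 for LOC_Os08g05970, -0.93 for LOC_Os01g74040, -0.80 for LOC_Os01g48446, -0.72 for LOC_Os05g36140, -0.66 for LOC_Os02g36000 and -0.32 for LOC_Os06g14420, which turned to 0.22 under median-ratio scaling. LOC_Os08g05970 and LOC_Os08g05980 are neighbours on chromosome 8. Members were taken for being high in OE normal and in WT drought, which favours this pattern.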

How the results depend on the processing

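For OE drought against WT drought, leaving out 1 library at a time gave 2 to 14 members higher, 2 to 68 lower, 625 to 6191 loci called of 3464 with all libraries, and a members' median of -0.94 to 0.04, where the value above 0 came without WT drought 1. With no filter 6 members were higher and 2158 loci called. A shared spread over 11 libraries gave 20 higher, 18 lower and 9144 loci. The replicate block gave 8 higher, 4 lower and 1373 loci. For OE drought against OE normal, leaving out 1 library gave 76 to 97 members higher, 7 to 21 lower and 9500 to 17866 loci of 16217. Members lower were 7 with median-ratio scaling, 8 with no filter and 7 with the shared spread, and median-ratio scaling gave a members' median of 1.865. The replicate block gave 97 higher and 15 lower. Same-numbered libraries had deviations that correlated at -0.132 to 0.022. With 2 or 3 libraries per group, this gives no sign of pairing by number and cannot exclude it. The rule was met by 1197 loci with a pseudocount of 0.1, which kept 97 of the members within the first 150, and by 456 with an OE minimum of 1.

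Signs turned for some members. Under median-ratio scaling, OE drought minus WT drought was 0.17 for CML31, 0.13 for CML15 and 0.0275 for LOC_Os02g04130, and OE drought minus OE normal was 0.18 for DREB1B, 0.0328 for CHT8, 0.48 for LOC_Os01g35330, 0.46 for LOC_Os03g47530, 0.0069 for LOC_Os10g41330 and 0.22 for LOC_Os06g14420. Leaving out 1 library, OE drought minus WT drought ran from -0.54 to 0.29 for CML31, -0.86 to 0.34 for CML15, -1.25 to 0.02 for TIFY11A, -0.56 to 0.29 for SAP17, -1.01 to 0.12 for PP2C32, -0.15 to 0.49 for TIFY11D, -0.33 to 1.64 for DREB1C and -0.40 to 0.64 for TIFY11B. It ran from -0.0654 to 2.10 for LOC_Os05g01920, -1.25 to 0.14 for LOC_Os03g47530, -0.37 to 1.50 for LOC_Os12g32610, -0.94 to 0.23 for LOC_Os02g04130, -0.38 to 0.81 for LOC_Os10g41330, -1.70 to 0.0343 for LOC_Os01g74040, -1.20 to 0.0646 for LOC_Os01g25280 and -1.25 to 0.10 for LOC_Os06g14420. OE drought minus OE normal ran from -0.35 to 0.10 for LOC_Os01g35330, -0.20 to 0.17 for LOC_Os03g47530, -0.0711 to 0.43 for LOC_Os12g32610 and -0.0191 to 0.59 for LOC_Os02g37290. The causes were not tested. Depth limits the precision of low loci by an amount that these tables do not give.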
